A study of Mus musculus with 15 samples.

Results

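Microglia are the resident macrophages of brain tissue. The genes described here are 33 genes of microglia and innate immunity, chosen by name out of the 25080 genes listed for every library, and grouped by role: 10 homeostatic surface and secreted genes (Cx3cr1, P2ry12, P2ry13, Gpr34, Tmem119, Csf1r, Siglech, Fcrls, Selplg, Olfml3), the 3 chains of complement C1q (C1qa, C1qb, C1qc), 6 immune receptors and adaptors (Trem2, Tyrobp, Fcer1g, Fcgr3, Itgam, Ly86), 5 lysosomal, cytoskeletal and regulatory genes (Ctss, Cd68, Laptm5, Aif1, Irf8), 2 border macrophage genes (Mrc1, Cd163), 4 interferon-responsive genes (Ifit1, Ifit3, Isg15, Irf7) and 3 genes of MHC class I (B2m, H2-D1, H2-K1). The rule uses no measured value. All 33 were found in all 14 libraries, and 28 passed the expression filter of the test, which asked for 1 TPM or more (an abundance corrected for transcript length and library total) in 3 libraries or more. Irf8, Mrc1, Cd163, Ifit1 and Irf7 did not.

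In healthy tissue microglia survey their surroundings through receptors for signals from neurons and for nucleotides: Cx3cr1 binds the neuronal chemokine Cx3cl1, P2ry12 and P2ry13 bind nucleotides, and Csf1r transmits the growth signals of Csf1 and Il34 on which these cells depend. C1q, the starting molecule of the classical complement pathway, is made in brain mainly by microglia and can tag synapses, while Tyrobp and Fcer1g are adaptors through which receptors such as Trem2 and the antibody receptor Fcgr3 signal. Cd68 and Laptm5 are lysosomal membrane proteins, and the level of Cd68 is often used as a sign of phagocytic activity. Type I interferon induces genes such as Ifit1, Ifit3 and Isg15 in many cell types, and MHC class I presents peptides on most nucleated cells, so these last sets are not restricted to microglia.

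Whole thalamus was dissected from male mice aged 2 to 4 months on a C57Bl6J background. In the mice labelled Maged1 cKO, Cre driven by the vGluT2 promoter removes a floxed Maged1 in glutamatergic neurons, so microglia are not the targeted cells, and the mice labelled Maged1 WT are the controls. All mice had 3 days of saline and then 5 days of cocaine at 20 mg/kg or of saline, injected intraperitoneally. The RNA came from unsorted tissue and was depleted of ribosomal RNA, and the labels gave the libraries as 4 each of control saline, control cocaine and cKO saline and 2 of cKO cocaine; of the 15 samples, 1 further cKO cocaine sample was not analysed here. The labels do not say whether a sample is 1 animal, so the p-values measure the spread between these samples.

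Maged1 was at 163.5 to 188.6 TPM in control saline and 69.2 to 89.4 TPM in cKO saline, but the libraries labelled control cocaine held 49.7 to 76.7 TPM and those labelled cKO cocaine 140.4 and 144.3 TPM. In the cocaine libraries Maged1 thus goes against the genotype label, and in 4 saline libraries the genotype tag goes against the title, which set the groups here. Whether the cocaine labels are exchanged was not tested. If they are, each comparison of cocaine with saline within a label also compares genotypes, and treatment and genotype cannot be told apart in it. The interaction described below would then compare genotypes over both treatments. The cocaine libraries also differed in composition. The 5 most abundant genes held 36.0% to 41.6% of the listed TPM in them against 18.9% to 21.6% in saline libraries. The TPM of each library were therefore divided by a trimmed-mean (TMM) factor, 0.807 to 0.9385 in cocaine and 1.068 to 1.216 in saline libraries; without it the median log2 fold change of all tested genes was −0.335 in the control and −0.346 in the cKO comparison of cocaine with saline, and with it 0.00 and 0.01. That shift is common to all genes, so a sign that turns with TPM as deposited follows from it; relative to the all-gene median, the median of the 28 tested members was 0.107 and 0.0876 with TPM as deposited and 0.0818 and 0.0745 with the factor. All levels below are these scaled TPM, and all changes are relative to that centre. Tests used limma on log2(scaled TPM + 0.5) over 13471 genes, with Benjamini-Hochberg adjusted p-values; to be called, a gene needed an adjusted p below 0.05 and a log2 fold change of 0.5 or more in size. TPM keeps no depth, so the counting error of each library is unknown.

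The control elements of some of these genes can be read directly. RefSeq promoters of GRCm38.p6 were matched for 27 of the 33 genes and searched, over the 250 bases before the start and on both strands, for the interferon-stimulated response element, read here as 2 copies of GAAA with any 2 bases between them, and for GAGGAAGT, a site of the myeloid factor PU.1. The first was found in 6 of the 27 genes (Ifit1, Ifit3, Isg15, B2m, Ctss and Aif1). Counted by promoter this was 6 of 30, against 2.98% of 32851 mouse promoters. The second was found in 1 gene (C1qc), 1 of the 30 promoters, against 2.44%. The interferon elements are shown for the 3 interferon-responsive genes that hold one and for B2m, the light chain of MHC class I, and the PU.1 site for C1qc, a gene that passed the test below. Each stretch is read 5′ to 3′ on the strand of its gene, with the matches in capitals; where the capitals begin with TTTC or ACTT the match is on the opposite strand, and in Isg15 the capitals join 3 overlapping matches.
Ifit1, chr19:34640689-34640838, plus strand: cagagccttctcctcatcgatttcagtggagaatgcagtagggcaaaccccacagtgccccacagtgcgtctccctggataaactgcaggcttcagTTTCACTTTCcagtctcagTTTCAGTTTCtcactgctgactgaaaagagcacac
Ifit3, chr19:34583329-34583478, plus strand: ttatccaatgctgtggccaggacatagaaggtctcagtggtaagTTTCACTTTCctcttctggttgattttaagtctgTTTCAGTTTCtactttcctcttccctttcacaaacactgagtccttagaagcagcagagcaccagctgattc
Isg15, chr4:156200869-156201018, minus strand: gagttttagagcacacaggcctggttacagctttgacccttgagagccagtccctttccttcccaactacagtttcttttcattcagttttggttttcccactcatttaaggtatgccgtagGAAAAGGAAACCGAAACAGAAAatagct
B2m, chr2:122147487-122147636, plus strand: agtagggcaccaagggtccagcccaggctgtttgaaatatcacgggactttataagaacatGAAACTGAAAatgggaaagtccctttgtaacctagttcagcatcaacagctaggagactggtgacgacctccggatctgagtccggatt
C1qc, chr4:136893074-136893164, minus strand: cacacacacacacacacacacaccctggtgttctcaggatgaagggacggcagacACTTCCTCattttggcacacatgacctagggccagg
A match describes these letters and is not evidence of binding.

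The 33 genes spanned a wide range of levels. B2m was the most abundant, at 29.2 to 41.4 scaled TPM over the 14 libraries, followed by the lysosomal protease Ctss at 14.6 to 19.3 and by H2-D1 at 13.3 to 20.3, whose ranges overlap. The C1q chains came next, C1qb at 12.8 to 18.5, C1qa at 12.3 to 16.7 and C1qc at 10.7 to 14.7, and neighbours in this order overlap too. Csf1r was at 10.1 to 13 and Tyrobp at 6.46 to 10.1. Most receptors of homeostatic microglia lay lower: Cx3cr1 at 4.87 to 6.84, Tmem119, a surface protein that marks microglia, at 3.68 to 5.15, and P2ry12 at 3.13 to 4.90. The lowest were the genes below the filter. Mrc1 and Cd163, scavenger receptors of border macrophages, were at 0.263 to 1.08 and 0.0466 to 0.345, the interferon regulator Irf7 at 0.238 to 1.34, Ifit1 at 0.387 to 1.05 and Irf8, a transcription factor of microglia, at 0.542 to 0.848.

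**Figure D1:**
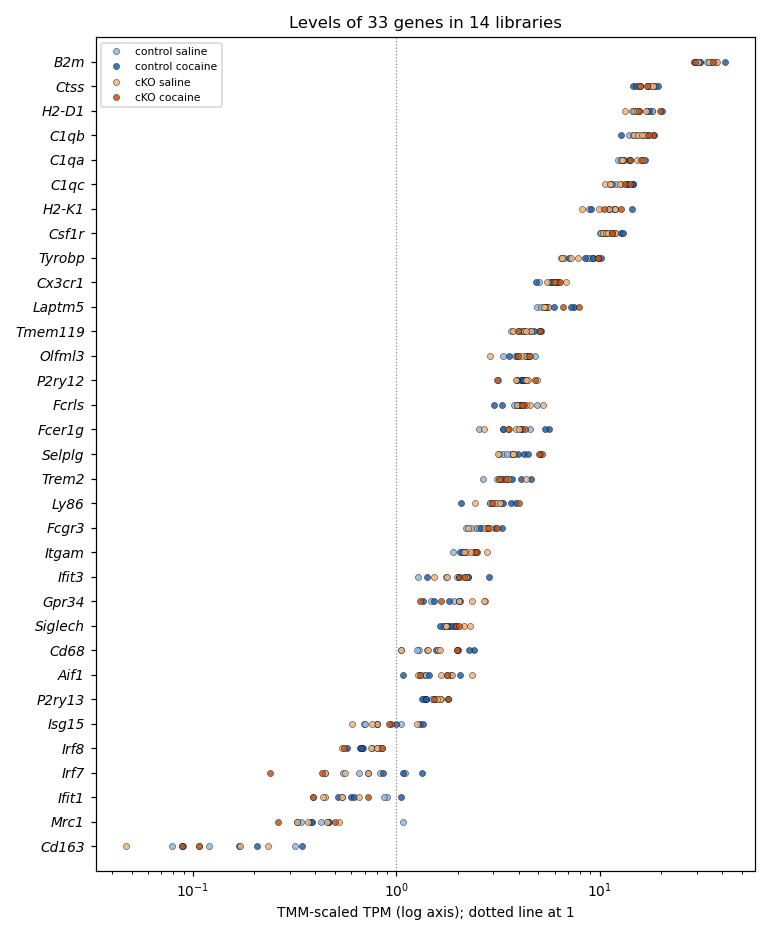
Scaled TPM (log axis) of all 33 genes, ordered by their median, with 1 point for each of the 14 libraries coloured by group. B2m lies highest and Cd163 lowest, and for most genes the colours are mixed.

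The microglial label was checked against markers. Sall1, a transcription factor of microglia, was at 2.27 to 4.06 scaled TPM, and with Tmem119 and P2ry12 as given above these defining markers were present in every library. Of 12 markers of other blood leukocytes (T and B cells, natural killer cells, neutrophils and monocytes), 10 stayed below 1 scaled TPM in all libraries, none was at 0 in all of them, and their sum ran from 0.779 to 4.32. Of 9 further border macrophage genes 8 stayed below 1, and the sum was highest in control saline replicate 1, at 4.97. That library also held the highest Mrc1 (1.08 against 0.263 to 0.522 elsewhere) and stood apart in the choroid plexus gene Ttr, at 1412 scaled TPM against 1.53 to 51.1 in the other 13 libraries. In bulk tissue, fewer cells of a type and less RNA per cell cannot be told apart.

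The first question was whether repeated cocaine changed these genes in the mice labelled control. Of the 28 tested genes 1 was called higher, Cd68, and 0 lower, against a background of 1.43% of all tested genes called higher and 1.66% lower. By the adjusted p alone, 5 genes were higher (Cd68, Selplg, C1qc, Laptm5 and Fcgr3) and 0 lower, against 14.2% and 10.2% of all tested genes. Positive fold changes were seen for 23 of the 28 genes, against 50.2% of all tested genes. The median over the 28 was 0.08 on the log2 scale, against 0.00 for all tested genes, while with TPM as deposited the median was −0.228 and 3 were positive. The counts of genes called higher lie close to what the background gives for 28 genes.

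Cd68 was at 1.42, 1.06, 1.29 and 1.26 scaled TPM in control saline and at 1.58, 2.00, 2.42 and 2.29 in the libraries labelled control cocaine. Every cocaine library lay above every saline library. The log2 fold change was 0.54 (95% interval 0.27 to 0.81, adjusted p = 0.00841 by limma), a fold of 1.45, and the exact two-sided permutation p was 0.0286, the smallest that 4 against 4 libraries allow. Cd68 remained positive with TPM as deposited (log2 0.26, adjusted p = 0.0713) but was then not called. With the groups set by the genotype tag its log2 fold change was 0.45 (adjusted p = 0.0329), below the minimum for a call, and without control saline replicate 1, which stood apart in Ttr, it was 0.57 (adjusted p = 0.0138). Leaving out control saline replicate 2 (log2 0.48), control cocaine replicate 3 (0.48) or control cocaine replicate 4 (0.50, just under the minimum) ended the call, with adjusted p-values of 0.0262 to 0.0269.

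Selplg, a glycoprotein ligand of selectins found on microglia and leukocytes, was at 3.65, 3.35, 3.49 and 3.19 scaled TPM in control saline and at 3.97, 4.24, 4.44 and 5.10 in the libraries labelled control cocaine. The groups did not overlap, and the log2 fold change was 0.33 (95% interval 0.17 to 0.49, adjusted p = 0.00725 by limma). With TPM as deposited its log2 fold change was 0.00. C1qc was at 12, 11.4, 11.2 and 11.4 in control saline and at 13.7, 14.7, 13.7 and 14.5 in the libraries labelled control cocaine, again without overlap. Its log2 fold change was 0.29 (95% interval 0.17 to 0.41, adjusted p = 0.00326 by limma), the lowest adjusted p of the 28 genes in this comparison, but the sign turned with TPM as deposited (−0.0729). No overlap was seen for 4 of the 28 genes in this direction, against 14.1% of all tested genes, and for 0 in the other, against 11.1%.

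The other chains of C1q stood beside C1qc with smaller differences. C1qa was at 13.9, 12.9, 12.3 and 12.8 scaled TPM in control saline and at 13.2, 16.7, 16.2 and 14 in the libraries labelled control cocaine (log2 0.20, 95% interval 0.01 to 0.39, adjusted p = 0.122 by limma). C1qb was at 17.0, 13.9, 14.6 and 15.3 in control saline and at 12.8, 16.1, 18.5 and 17.2 in the cocaine libraries (log2 0.08, 95% interval −0.13 to 0.29, adjusted p = 0.578 by limma). Both pairs of groups overlapped. The 3 genes lie side by side on chromosome 4 of GRCm38 on the minus strand, C1qb at 136880129 to 136886187, C1qc at 136889804 to 136893065 and C1qa at 136895917 to 136898803. The ratio of C1qc to C1qb ran from 0.708 to 0.825 in control saline and from 0.741 to 1.07 in the libraries labelled control cocaine, the ranges overlapping.

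Among the immune receptors and adaptors, Fcgr3 was at 2.46, 2.21, 2.33 and 2.55 scaled TPM in control saline and at 2.80, 3.30, 2.60 and 3.07 in the libraries labelled control cocaine. These groups did not overlap (log2 0.25, 95% interval 0.07 to 0.43, adjusted p = 0.0425 by limma), and with TPM as deposited the sign turned (−0.0611). With 1 library left out, Fcgr3 kept an adjusted p below 0.05 in 5 of 14 cases. Fcgr3 shares sequence with other Fc gamma receptor genes, so reads could be divided among them. Fcer1g, the adaptor of Fc receptors, had the third highest fold change and the largest SE of the 28, 0.18. It was at 2.56, 4.09, 4.53 and 3.35 in control saline and at 3.36, 5.62, 4.16 and 5.41 in the cocaine libraries (log2 0.31, 95% interval −0.07 to 0.70, adjusted p = 0.220 by limma). Trem2, a lipid-sensing receptor, had a log2 fold change of 0.26 (adjusted p = 0.105). Tyrobp was at 8.94, 9.30, 6.69 and 8.70 in control saline and at 8.45, 10.1, 7.03 and 9.29 in the cocaine libraries, with wide overlap (log2 0.05, adjusted p = 0.780). Itgam, a complement receptor chain, and Ly86, a partner of a toll-like receptor homologue, had log2 fold changes of 0.10 and 0.05 and did not pass.

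Laptm5 was at 4.92, 5.60, 5.16 and 5.37 scaled TPM in control saline and at 5.45, 7.49, 5.95 and 7.20 in the libraries labelled control cocaine. Replicate 1 of the cocaine libraries lay within the saline range (log2 0.28, 95% interval 0.09 to 0.47, adjusted p = 0.0373 by limma, exact permutation p = 0.0571), and the sign turned with TPM as deposited (−0.0664). Ctss, the most abundant lysosomal gene of the set, had a log2 fold change of −0.16 (95% interval −0.33 to 0.02, adjusted p = 0.173), and Aif1, the actin-binding protein known as Iba1, one of 0.09 (95% interval −0.28 to 0.45, adjusted p = 0.743).

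The homeostatic receptors showed no difference that passed the test other than Selplg. Cx3cr1 was at 5.86, 6.0, 5.04 and 5.71 scaled TPM in control saline and at 4.87, 6.09, 6.25 and 5.77 in the libraries labelled control cocaine, a fold of 1.01 with a 95% interval of 0.898 to 1.14 (adjusted p = 0.889 by limma). P2ry12 was at 3.16, 4.20, 4.27 and 3.93 against 4.17, 4.12, 4.22 and 3.90 (fold 1.05, 0.891 to 1.25, adjusted p = 0.655), and Tmem119 at 5.05, 3.68, 4.15 and 3.99 against 4.77, 4.24, 4.52 and 5.15 (fold 1.1, 0.949 to 1.27, adjusted p = 0.334). Csf1r was at 11.9, 10.1, 10.4 and 10.2 against 11.0, 10.8, 12.8 and 13 (fold 1.11, 0.999 to 1.23, adjusted p = 0.137). The intervals of these 4 receptors thus leave room for changes of up to 1.27-fold. Fcrls, an Fc receptor-like protein of mouse microglia, had the lowest fold change of the set, log2 −0.19 (95% interval −0.42 to 0.03, adjusted p = 0.192), and Gpr34, a lysophosphatidylserine receptor, had −0.12 (adjusted p = 0.507). P2ry13, the lectin Siglech and the secreted protein Olfml3 had log2 fold changes between −0.02 and 0.03, and over the 14 libraries they spanned 1.33 to 1.80, 1.65 to 2.31 and 2.90 to 4.81 scaled TPM. Cx3cr1 as annotated spans Gorasp1, Csrnp1 and Xirp1 on its own strand, so its reads could be divided with theirs. Over all 28 genes, 24 had a 95% interval that stayed within 0.5 on the log2 scale in both directions.

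**Figure D2:**
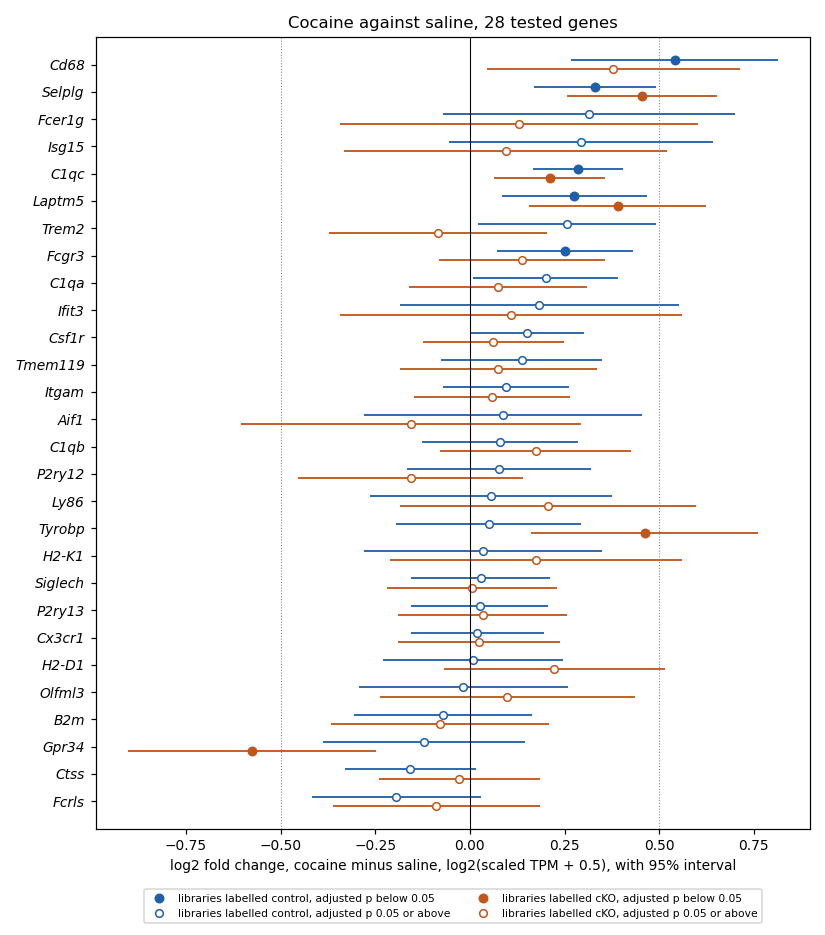
Log2 fold change of cocaine against saline with its 95% interval for the 28 tested genes, in libraries labelled control (blue) and labelled cKO (orange); filled points have an adjusted p below 0.05 and dotted lines mark 0.5. Cd68 leads the control comparison at 0.54 and Gpr34 lies lowest in the cKO comparison at −0.58; these values follow TMM scaling, and with TPM as deposited 3 genes in the control and 4 in the cKO comparison are positive.

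The second question was the same comparison in the mice labelled cKO, with 2 cocaine libraries. Of the 28 tested genes 1 was called lower, Gpr34, and 0 higher, against 1.17% and 1.97% of all tested genes. By the adjusted p alone 4 genes were higher (Selplg, Laptm5, Tyrobp and C1qc) and 1 lower, against 10.2% and 9.96%. Of the 28 genes 21 were positive, against 51.8% of all tested genes. The median over the 28 was 0.08 on the log2 scale against 0.01 for all tested genes, but with TPM as deposited it was −0.258 with 4 positive. With 2 against 4 libraries the exact permutation test cannot go below 0.133.

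Gpr34 was at 2.37, 2.74, 2.04 and 2.70 scaled TPM in cKO saline and at 1.31 and 1.67 in the libraries labelled cKO cocaine. Both cocaine libraries lay below every saline library (log2 −0.58, 95% interval −0.90 to −0.25, adjusted p = 0.0188 by limma, exact permutation p = 0.133), a fold of 0.671. No overlap in this direction was seen for 1 of the 28 genes, against 21.1% of all tested genes. Leaving out replicate 1 of the cocaine libraries ended this call, as did leaving out replicate 2 and setting the groups by the genotype tag (log2 −0.44, adjusted p = 0.138). The gene spans bases 13632089 to 13640858 of chromosome X (GRCm38, plus strand), inside the span of the neuronal gene Cask on the other strand; the library kit marks strand.

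Selplg was at 3.78, 3.76, 3.15 and 3.75 scaled TPM in cKO saline and at 5.19 and 5.06 in the libraries labelled cKO cocaine (log2 0.45, 95% interval 0.26 to 0.65, adjusted p = 0.00502 by limma), the lowest adjusted p of the 28 in this comparison. Tyrobp was at 7.24, 7.80, 6.46 and 6.54 against 9.82 and 9.80 (log2 0.46, 95% interval 0.16 to 0.76, adjusted p = 0.0333). Laptm5 was at 5.37, 5.59, 5.38 and 5.30 against 6.61 and 7.94 (log2 0.39, 95% interval 0.16 to 0.62, adjusted p = 0.0233). In each of these genes both cocaine libraries lay above all 4 saline libraries, and with TPM as deposited the fold changes kept their sign (log2 0.10, 0.09 and 0.03) without passing the test. No overlap in this direction was seen for 6 of the 28 genes, against 22.6% of all tested genes.

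C1qc was at 10.7, 12.8, 11.2 and 12.6 scaled TPM in cKO saline and at 13.4 and 14 in the libraries labelled cKO cocaine (log2 0.21, 95% interval 0.06 to 0.36, adjusted p = 0.0446 by limma), and its sign turned with TPM as deposited (−0.168). With 1 library left out, C1qc kept an adjusted p below 0.05 in 4 of 14 cases here. C1qa was at 13, 16.3, 12.8 and 15.2 against 16.0 and 14.2 (log2 0.07, adjusted p = 0.674). C1qb was at 14.7, 16.7, 15.4 and 16.1 against 18.2 and 17.4 (log2 0.17, adjusted p = 0.320). Cd68, called in the control comparison, was at 1.60, 1.44, 1.05 and 1.63 against 2.00 and 1.98 (log2 0.38, 95% interval 0.05 to 0.71, adjusted p = 0.102), so its groups did not overlap but the test was not passed. Among the other receptors and lysosomal genes, Fcgr3 (log2 0.14, or −0.196 with TPM as deposited, adjusted p = 0.369), Ly86 (0.21, adjusted p = 0.457), Itgam (0.06, adjusted p = 0.708), Trem2 (−0.09, adjusted p = 0.695) and Ctss (−0.03, adjusted p = 0.870) did not pass either.

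The homeostatic receptors again gave no difference that passed, Selplg and Gpr34 aside. Cx3cr1 was at 6.06, 6.84, 5.93 and 5.51 scaled TPM in cKO saline and at 6.01 and 6.35 in the libraries labelled cKO cocaine, a fold of 1.02 with a 95% interval of 0.876 to 1.18 (adjusted p = 0.893 by limma). P2ry12 was at 4.42, 4.90, 4.35 and 3.89 against 3.13 and 4.78 (fold 0.898, 0.731 to 1.1, adjusted p = 0.460), the cocaine libraries holding both the lowest and the second highest of these 6 values. Csf1r was at 10.4, 11.9, 10.8 and 11.0 against 11.5 and 11.5 (fold 1.04, 0.918 to 1.19, adjusted p = 0.655) and Tmem119 at 4.26, 4.61, 3.74 and 4.33 against 3.94 and 5.08 (fold 1.05, 0.879 to 1.26, adjusted p = 0.705). Aif1 had a log2 fold change of −0.15 (95% interval −0.60 to 0.29, adjusted p = 0.645). Only 16 of the 28 intervals stayed within 0.5 on the log2 scale here.

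**Figure D3:**
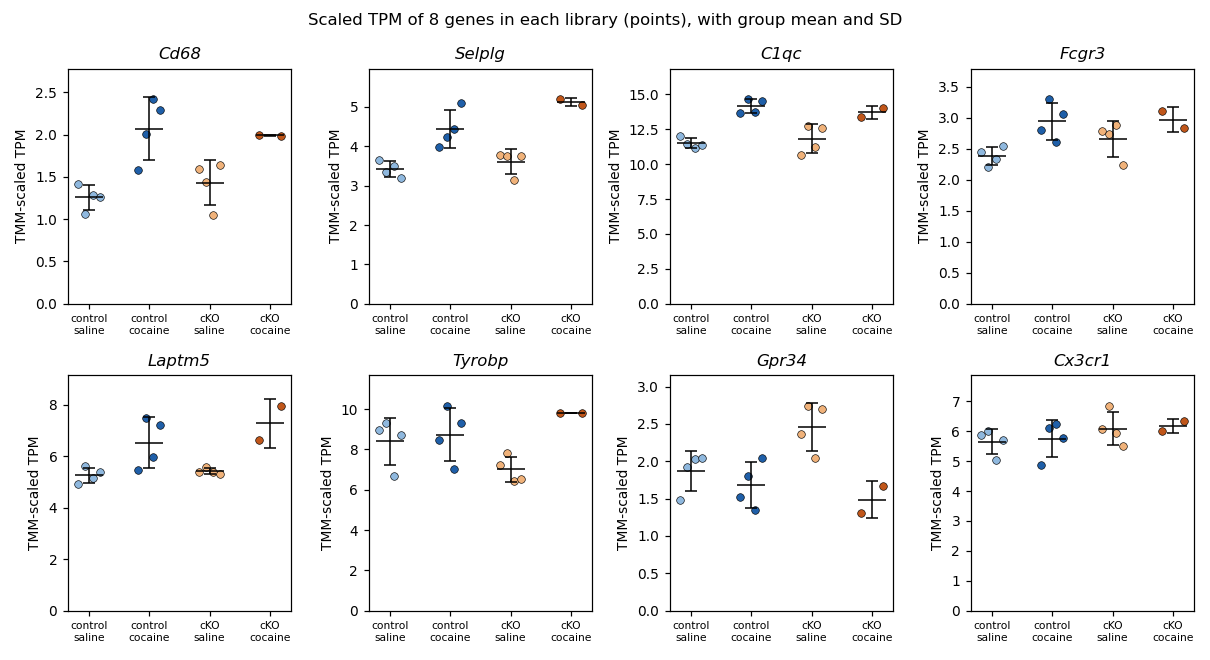
Scaled TPM (linear axes from 0) of 8 genes in each library, with the group mean and SD. Cd68, Selplg, C1qc and Fcgr3 do not overlap between control saline and control cocaine, Gpr34 is lower in both cKO cocaine libraries than in all 4 of cKO saline, and Cx3cr1 overlaps across all groups.

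Because Maged1 goes against the genotype label in the cocaine libraries, cocaine was also set against saline as the mean of both labels, a contrast added after the data were seen. By the adjusted p alone 6 of the 28 genes were higher and 1 lower, against 17.8% and 15.3% of all tested genes, and 0 reached the fold change minimum as well, against 2.07%. The 6 were Selplg (log2 0.39, adjusted p = 0.000339 by limma), Cd68 (0.46, adjusted p = 0.00369), Laptm5 (0.33, adjusted p = 0.00294), C1qc (0.25, adjusted p = 0.001), Tyrobp (0.26, adjusted p = 0.0426) and Fcgr3 (0.19, adjusted p = 0.0364). Gpr34 was lower (log2 −0.35, adjusted p = 0.0156). With TPM as deposited the sign of Laptm5, C1qc, Tyrobp and Fcgr3 turned and 2 of the 28 genes were positive. Cx3cr1 stood at a fold of 1.02 with a 95% interval of 0.922 to 1.12.

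The tested interferon-responsive and MHC class I genes (Ifit3, Isg15, B2m, H2-D1 and H2-K1), among them 3 whose promoter elements are printed above, gave no call in any comparison. Ifit3 was at 2.25, 1.28, 1.75 and 1.98 scaled TPM in control saline, at 1.42, 2.04, 2.26 and 2.87 in the libraries labelled control cocaine, at 1.78, 2.17, 2.20 and 1.54 in cKO saline and at 2.04 and 2.14 in those labelled cKO cocaine. Isg15, a ubiquitin-like protein, was at 1.05, 0.695, 0.703 and 0.801, then 0.802, 1.31, 0.995 and 1.35, then 0.608, 1.27, 0.799 and 0.764, and 0.937 and 0.924 in the same order of groups. All 4 groups overlap in both genes. Ifit3 has a near copy, Ifit3b, with which its reads could be divided. For cocaine against saline in control libraries, Isg15 had a log2 fold change of 0.29 (95% interval −0.06 to 0.64, adjusted p = 0.207 by limma) and Ifit3 one of 0.18 (95% interval −0.19 to 0.55, adjusted p = 0.461).

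B2m was at 33.8, 37.4, 31.2 and 34.7 scaled TPM in control saline and at 29.8, 41.4, 31.0 and 29.2 in the libraries labelled control cocaine (fold 0.951, 95% interval 0.808 to 1.12, adjusted p = 0.664 by limma). In cKO saline it was at 35.7, 37.6, 34.6 and 30.5, against 2 cocaine libraries of this label at 36.2 and 29.4 (fold 0.947, 95% interval 0.775 to 1.16, adjusted p = 0.719). The heavy chains H2-D1 and H2-K1, which are close in sequence and could share reads, had folds of 1.01 (95% interval 0.852 to 1.19) and 1.02 (0.824 to 1.27) in the control comparison and of 1.17 (0.953 to 1.43) and 1.13 (0.865 to 1.47) in the cKO comparison. Their ratio, H2-D1 to H2-K1, stayed between 1.33 and 1.65 in all libraries.

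The third question was whether the genotype label went with a difference. Between cKO and control saline libraries 0 of 28 genes were called by limma, against 0.052% of all tested genes; 1 gene, Gpr34, had an unadjusted p below 0.05. Gpr34 was at 1.48, 1.92, 2.03 and 2.04 scaled TPM in control saline and, as given above, at 2.04 to 2.74 in cKO saline (log2 0.32, 95% interval 0.06 to 0.59, adjusted p = 0.218). Tyrobp had the lowest fold change (log2 −0.24, adjusted p = 0.305). Aif1 (log2 0.21, adjusted p = 0.569) and P2ry12 (0.16, adjusted p = 0.511) followed Gpr34 at the upper end, and H2-D1 (−0.16, adjusted p = 0.487) and H2-K1 (−0.10, adjusted p = 0.781) were next to Tyrobp at the lower end. The intervals of 26 of the 28 genes stayed within 0.5 on the log2 scale.

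Between the libraries labelled cKO cocaine and control cocaine 0 of 28 genes were called by limma, against 0.0371% of all tested genes, and 0 had an unadjusted p below 0.05. The highest fold changes were those of Fcrls (log2 0.21, adjusted p = 0.545), Selplg (0.19, adjusted p = 0.429) and Tyrobp (0.17, adjusted p = 0.681), and the lowest those of Fcer1g (−0.20, adjusted p = 0.762), Trem2 (−0.20, adjusted p = 0.603) and Isg15 (−0.16, adjusted p = 0.804). The interaction, which asks whether the cocaine difference itself depends on the label, called 0 of 28 genes, against 0.802% of all tested genes, and 2 had an unadjusted p below 0.05, Gpr34 (log2 −0.45, 95% interval −0.88 to −0.03, adjusted p = 0.241) and Tyrobp (0.41, 95% interval 0.03 to 0.80, adjusted p = 0.245). Trem2 (−0.34, adjusted p = 0.316), Aif1 (−0.24, adjusted p = 0.684), H2-D1 (0.22, adjusted p = 0.562) and Ly86 (0.15, adjusted p = 0.784) were the next at either end. A difference between the labels in the response of Cd68 or of Gpr34 to cocaine is thus not shown. With genotypes read from Maged1 instead of the label, the interaction would compare genotypes and not responses to cocaine.

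Some libraries moved across many of the genes at once. Replicate 2 of cKO saline lay above its group mean in 27 of the 28 tested genes and was the highest of all 14 libraries for 6, while replicate 1 of control cocaine lay above its group mean in 4 and was the lowest of all for 6. Replicate 2 of control cocaine was the highest of all for 8 genes, among them B2m, H2-D1, H2-K1 and Tyrobp. The same counts were not made over all tested genes, so whether these shifts are particular to the set was not tested. The medians of the libraries' deviations from the mean of all 14 ran from −0.12 to 0.00 in control saline and from −0.07 to 0.10 in the libraries labelled control cocaine, so the ranges overlap.

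**Figure D4:**
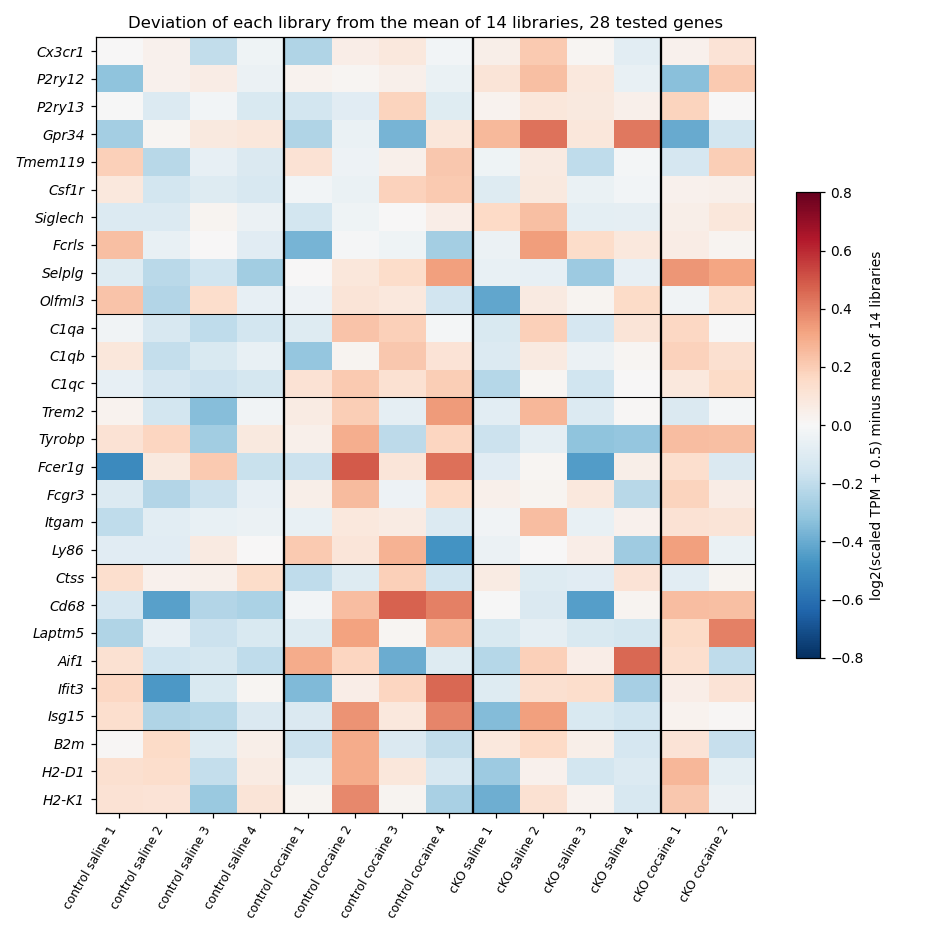
Difference of log2(scaled TPM + 0.5) from the mean of the 14 libraries, for the 28 tested genes in rows, ordered by role, and the libraries in columns, with thick lines between groups. Cd68, Selplg and C1qc are redder in the cocaine columns than in the saline columns of the same label, and cKO saline replicate 2 is above its group mean for 27 genes. With TPM as deposited the columns overlap for all 3 genes. The fold change then turns for C1qc, while that of Cd68 stays positive (log2 0.26 in the control and 0.08 in the cKO comparison).

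Around these genes, further lists of the same pathways were counted. For calls in these lists and in the cell markers below, the background is the share of all tested genes called. It was 1.43% higher and 1.66% lower in the control comparison of cocaine with saline, and 1.97% and 1.17% in the cKO comparison. Of 35 other microglia genes 22 were tested, and 0 were called in either comparison of cocaine with saline; among the genes lower by the adjusted p alone were Lpcat2 in the control comparison and Tgfbr1 in the cKO comparison. Of 13 ligands and partner receptors 11 were tested and 1 was called, Cx3cl1, the neuronal ligand of Cx3cr1. It was at 80.6, 73.9, 77.6 and 81.9 scaled TPM in control saline and at 113, 117, 125 and 149 in the libraries labelled control cocaine (log2 0.67, SE 0.07, adjusted p = 0.000133 by limma), and with TPM as deposited the log2 fold change was 0.30, below the minimum for a call. In cKO saline Cx3cl1 was at 89.4 to 95.1 and in the libraries labelled cKO cocaine at 102 and 117, and it was not called there.

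Of 17 other complement genes 8 were tested and Cd59a, an inhibitor of the membrane attack complex, was called higher in the control comparison (log2 0.64, SE 0.19, adjusted p = 0.0294 by limma), but not with TPM as deposited (0.30). Of 39 other interferon genes 20 were tested and 0 were called in either comparison of cocaine with saline, and the receptor chain Ifnar1 was lower by the adjusted p alone in both (log2 −0.33 and −0.44). Of 20 antigen presentation genes 15 were tested and 0 called. Of 27 genes of activated microglia and cytokines 10 were tested and 15 stayed below 1 scaled TPM in all libraries. In this list 2 genes were called higher in the cKO comparison, the lipoprotein Apoe (log2 0.54, SE 0.08, adjusted p = 0.000970 by limma), which astrocytes make in large amounts, and the NF-kB inhibitor Nfkbia (0.61, SE 0.13, adjusted p = 0.00752). With TPM as deposited neither was called (log2 0.14 and 0.24). In the control comparison on scaled TPM Apoe was also higher, by the adjusted p alone (log2 0.30, adjusted p = 0.00525 by limma). The comparisons of cocaine with saline and of genotypes share libraries, so their counts are not independent.

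Markers of other cells differed between the groups as well. For cocaine against saline, the median over 8 oligodendrocyte markers was 0.29 (log2) in the control comparison, but −0.0824 with TPM as deposited, and −0.30 in the cKO comparison (−0.686 as deposited), with 1 called in the former (Mobp, a myelin protein). The 7 tested markers of ependyma and choroid plexus had −0.64 and 0.78 (−0.978 and 0.425 as deposited), with 1 called in the latter (Rsph1, of motile cilia), and the 9 tested markers of hypothalamus and habenula had −0.42 and 0.56 (−0.772 and 0.209 as deposited), with the hypothalamic hormones Oxt (log2 −7.90) and Avp (−5.08) called in the former. Of 9 markers of thalamic neurons, Prkcd (log2 0.74) and Lef1 (0.54) were called higher and Calb2 (−0.69) lower in the control comparison, and Gbx2 and Calb2 higher (both 0.95) in the cKO comparison. The medians of these 9 were 0.24 and 0.26 (−0.132 and −0.126 as deposited). In the control comparison the 8 astrocyte markers had a median of 0.00 and the 11 tested of endothelial and mural cells one of 0.06. The 5 of red blood cells had 0.21 and the 4 tested of meningeal fibroblasts −0.10, with 0 called in each list. With TPM as deposited these medians were −0.366, −0.30, −0.0278 and −0.385. In the cKO comparison they were 0.02, −0.01, −0.37 and 0.05 in the same order (−0.366, −0.393, −0.616 and −0.257 as deposited), again with 0 called. By the adjusted p alone, 4 of the 11 endothelial and mural markers were lower there, against 9.96% of all tested genes. By the same rule 2 of the 8 astrocyte markers were higher, against 10.2%. The part of these other cells in the values of the 33 genes was not tested.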

How the data were processed

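RNA-seq of mouse thalamus was analysed in 14 libraries, grouped by sample title. Per the study's methods and the submitters' processing notes, the authors mapped paired-end reads to GRCm38.p4 (mm10) with STAR 2.5.3a, quantified transcripts with salmon and summarized them per gene with tximport; stranded libraries were made after ribosomal RNA depletion. The authors deposited 1 table of TPM per library, without counts. TPM keeps no depth, so no counting interval was given; the listed TPM summed to 312659 to 377401. In 2 deposited tables, whose unit was recorded as other, the authors' TPM carry a decimal comma, read here as a point.

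TPM were divided by unweighted TMM factors over the tested genes (30% of log ratios and 5% of mean values trimmed at each end), 0.5 was added and log2 taken, which understates changes of low genes. The 13471 genes that reached 1 TPM in 3 or more libraries entered limma 3.58.1 (R 4.3.3) with 4 group means and an intensity trend; calls needed a Benjamini-Hochberg adjusted p below 0.05 and an absolute log2 fold change of 0.5. Single values had exact two-sided permutation tests. The procedure was tested on simulated data. Python 3.11.15 and numpy 2.4.6 did the rest. Gene positions are those of GENCODE M21 and promoters those of RefSeq.

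The members, lists and tests were chosen with earlier results of these data known. Full statistics are given for members called, for the 3 highest and 3 lowest fold changes of each comparison, for the C1q chains and for Cx3cr1, P2ry12, Tmem119 and Csf1r; members with an adjusted p below 0.05 were added after their values were seen. Genes of other lists are named where called or where they mark a cell type, and Lpcat2, Tgfbr1 and Ifnar1, outside this rule, were named after their values were seen. Alternatives covered the scaling, pseudocount, filter, samples in the fit, trend, replicate block, genotype tag, the minimum fold change and leaving out each library. No pairing of the samples by the replicate numbers of the titles was seen. No 2 libraries were identical.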

Additional observations from a re-analysis of the deposited data

Results flagged for a closer look

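In 2 genes a single library lay far from the other 3 of its group by Dixon's criterion. It was applied to 99 pairs of a gene and a group of 4 libraries, and these 2 passed, where chance gives about 5% of such pairs. Selplg in cKO saline replicate 3 was at 3.15 scaled TPM against 3.75 to 3.78 in the other 3 libraries. H2-K1 in control saline replicate 3 was at 8.82 against 11.8 to 11.9. No tested gene of the set had an interaction with an adjusted p below 0.05 by limma, while 2 had an unadjusted p below 0.05.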

How the results depend on the processing

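With TPM as deposited 2 of the 28 tested members were called in the control comparison of cocaine with saline (Fcrls and Ctss, both lower) and 2 in the cKO comparison (Gpr34 and P2ry12, both lower). Of all 13471 tested genes, 2372 were then called lower and 53 higher in the control comparison. In the cKO comparison 3082 were called lower and 65 higher. The members' medians were −0.228 and −0.258. The fold changes of C1qc (−0.0729), Fcgr3 (−0.0611), Tyrobp (−0.301) and Laptm5 (−0.0664) in the control and of C1qc (−0.168) and Fcgr3 (−0.196) in the cKO comparison reversed, and the all-gene medians of −0.335 and −0.346 moved the same way. Members called were 0 in both comparisons with a pseudocount of 1 or only the libraries whose title and tag agree (an alternative added after the data were seen), and 5 in each with no fold change minimum. With a mean of at least 5 TPM they were 0 as well, but Cd68 and Gpr34 lie below that mean and were not tested there. By the genotype tag 0 were called in the control comparison, and in the cKO comparison Selplg in place of Gpr34. The members' median moved to 0.174 (cKO comparison) and 0.0946 (interaction) with a mean of at least 5 TPM, and to −0.0381 (cKO against control, saline) and 0.0665 (interaction) by the tag. In the 4 saline libraries whose tag goes against the title, Maged1 followed the title. It was at 167.7 and 165.6 TPM in control saline replicates 3 and 4. In cKO saline replicates 1 and 2 it was at 89.4 and 86.8 TPM. The cause of the changes by the tag was not tested. With 1 library left out, members called ran from 0 to 1 in the control comparison (0 without control saline replicate 2 or control cocaine replicate 3 or 4, where the log2 fold change of Cd68 was 0.477 or more) and from 0 to 2 in the cKO comparison (2 without cKO saline replicate 2, Tyrobp being the second; 0 without cKO cocaine replicate 2; Laptm5 in place of Gpr34 without cKO cocaine replicate 1, the lone library left being assumed to vary like the other groups). Tyrobp in the control comparison, 0.05 and not past the test, ran from −0.0505 to 0.144 with 1 library left out and was −0.0801 where title and tag agree. In the 3 remaining comparisons 0 members were called in all of these settings. Median-of-ratios and quantile scaling, a pseudocount of 0.1, no filter, a fit of the compared groups alone and no intensity trend left Cd68 and Gpr34 called. Without the filter none of Irf8, Mrc1, Cd163, Ifit1 and Irf7 passed.

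Same-numbered samples of different groups had a mean correlation of deviations of −0.0138 over 18 pairs, against 0.00458 over 54 pairs of different numbers. These means show no pairing by number, though they cannot establish that there was none. With a replicate block the members called stayed at 1 and 1, Cd68 at a log2 fold change of 0.54 (adjusted p = 0.0216 by limma) and Gpr34 at −0.56 (adjusted p = 0.0176), and the genes called were 385 and 372 against 415 and 423 without it. For cKO against control cocaine and the interaction the block gave 2 and 27 genes called against 5 and 108.

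Over all settings the genes called ran from 216 to 3287 in the control and from 216 to 3147 in the cKO comparison. TPM keeps no depth, so for genes near 1 TPM the counting error is unknown.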

Other observations

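Of the 5 genes below the filter, 3 are described here. Irf7, an interferon regulator, was at 1.11, 0.655, 0.545 and 0.835 scaled TPM in control saline, at 1.34, 1.08, 0.858 and 0.729 in the libraries labelled control cocaine, at 0.448, 0.722, 0.446 and 0.558 in cKO saline and at 0.434 and 0.238 in those labelled cKO cocaine. The cKO cocaine libraries lay below all others, and without the filter the difference of Irf7 from control cocaine did not pass limma (log2 −0.84, adjusted p = 0.164). Ifit1 was at 0.905, 0.543, 0.391 and 0.867, then 0.596, 0.621, 0.518 and 1.05, then 0.539, 0.655, 0.449 and 0.434, and 0.724 and 0.387 in the same order of groups, which overlap throughout. Irf8 ranged from 0.680 to 0.830 in control saline and from 0.574 to 0.687 in the libraries labelled control cocaine. It ranged from 0.542 to 0.848 in the saline libraries of cKO, and the pair labelled cKO cocaine held 0.552 and 0.847.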
